A study of Mus musculus with 11 samples.

Results

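The genes described here are 8 genes of mast cells and basophils, Hdc, Cpa3, Mcpt8, Gzmb, Fcer1a, Ms4a2, Fcer1g and Il1rl1, found by symbol among the 55291 genes of the count table. All 8 were in the table and all 8 passed the filter on low counts that left 17183 genes for testing. They were read in LSK cells, the lineage-negative, cKit-positive, Sca-1-positive fraction of mouse bone marrow that holds stem cells and multipotent progenitors, sorted from C57BL/6 mice. The groups were wild type (WT, n = 4), Phf6 knock out (KO, n = 3) and Phf6R274X Tg (Tg, n = 4), each library being labelled as 1 mouse. Phf6 encodes a chromatin protein of the X chromosome, and R274X is a nonsense allele of it. The sources used here do not give the promoter of the transgene, the extent of the knock-out deletion, the cells in which it acts, or the age and sex of the mice.

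Mast cells and basophils carry the high-affinity IgE receptor and release histamine, proteases and lipid mediators when antigen crosslinks it. Their progenitors branch from early myeloid cells of the bone marrow under the transcription factor Gata2, and the receptor's chains and some granule genes are transcribed before the cells mature. Several of the genes are shared with other cells: Gzmb with cytotoxic lymphocytes, Fcer1g with many myeloid cells and natural killer cells, Il1rl1 with some T cells and innate lymphoid cells, and Hdc with immature myeloid cells and myeloid-biased stem cells.

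Sequencing gave 20990446 to 45632018 counts per library. A gene with 0 counts could still have had up to 3, or 0.0657 to 0.143 counts per 1e6 counts (CPM), by counting error alone. Phf6 lay at 109.9 to 141.9 CPM in WT, 15.4 to 23.96 in KO and 182.6 to 277.7 in Tg. Kit (579.3 to 883.9 CPM over all libraries) and Ly6a, the gene of Sca-1 (20.04 to 40.6 CPM), were present in every library, as the sort requires. Xist, the RNA of the inactive X chromosome, lay at 48.8 to 54.2 CPM in WT, 32.6 to 41.1 in KO and at most 0.324 in Tg. Summed Y-linked transcripts ran from 0.0642 to 140.7 CPM in WT, 0.0329 to 114.2 in KO and 49.9 to 367.4 in Tg. The Tg genotype and the absence of Xist therefore cannot be told apart. Both kinds of transcript reached 10 CPM in 4 libraries, WT replicates 1, 2 and 4 and KO replicate 1, named below as holding both. KO replicate 2 held Xist at 39.9 CPM and Y-linked transcripts at 1.74 CPM, under that cut. Without those 4 libraries, which leaves 1 WT library, edgeR called no gene of any list described here in Tg against WT or in KO against WT, and calls that were made in Tg against KO are given below. In bulk RNA, fewer cells of a type and less RNA per cell cannot be told apart.

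The start sites of 6 of the 8 genes are shown, so that genes with a call (Hdc, Il1rl1 and Gzmb) can be set beside genes without one (Fcer1a, Ms4a2 and Cpa3). Those of Mcpt8 and Fcer1g are not printed because their windows overlap annotated exons. The Hdc window lies within its annotated gene (chr2:126593667-126619299, minus strand), and its overlap with exons was not examined. Each sequence is the 250 bases before the RefSeq transcription start (GRCm38.p6), written 5′ to 3′ on the gene's strand. Capitals mark matches on either strand to the GATA motif, spelled AGATAA or with another last letter as AGATAG, and also counted in the related forms TGATAA as well as TGATAG. The windows are Hdc at chr2:126618679-126618928 (minus strand), Il1rl1 at chr1:40429320-40429569 (plus strand, the first of its 2 starts in the table), Fcer1a at chr1:173227230-173227479 (minus strand), Gzmb at chr14:56262335-56262584 (minus strand), Ms4a2 at chr19:11623720-11623969 (minus strand) and Cpa3 at chr3:20242182-20242431 (minus strand).
Hdc: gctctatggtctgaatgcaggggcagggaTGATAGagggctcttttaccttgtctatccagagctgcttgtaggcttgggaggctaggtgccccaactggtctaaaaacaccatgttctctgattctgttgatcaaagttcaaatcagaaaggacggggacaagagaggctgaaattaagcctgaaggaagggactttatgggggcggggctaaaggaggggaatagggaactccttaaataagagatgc
Il1rl1: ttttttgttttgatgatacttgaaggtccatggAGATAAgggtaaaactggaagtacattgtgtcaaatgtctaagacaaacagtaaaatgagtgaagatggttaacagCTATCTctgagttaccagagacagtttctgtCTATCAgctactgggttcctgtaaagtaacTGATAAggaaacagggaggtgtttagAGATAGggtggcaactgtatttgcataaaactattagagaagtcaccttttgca
Gzmb: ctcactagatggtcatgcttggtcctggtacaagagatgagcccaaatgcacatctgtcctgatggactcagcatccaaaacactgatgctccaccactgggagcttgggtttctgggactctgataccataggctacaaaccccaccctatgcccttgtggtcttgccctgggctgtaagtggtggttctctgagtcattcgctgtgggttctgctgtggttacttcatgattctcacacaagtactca
Fcer1a: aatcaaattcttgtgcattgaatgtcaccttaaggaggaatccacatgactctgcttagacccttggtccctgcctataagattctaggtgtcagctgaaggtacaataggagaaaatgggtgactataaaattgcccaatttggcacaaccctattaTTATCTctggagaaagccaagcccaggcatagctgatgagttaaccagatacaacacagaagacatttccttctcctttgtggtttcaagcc
Ms4a2: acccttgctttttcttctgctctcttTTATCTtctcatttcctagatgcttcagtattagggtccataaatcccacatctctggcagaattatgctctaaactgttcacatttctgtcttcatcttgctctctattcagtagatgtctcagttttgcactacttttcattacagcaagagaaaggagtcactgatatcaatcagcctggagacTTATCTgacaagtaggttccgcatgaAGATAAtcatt
Cpa3: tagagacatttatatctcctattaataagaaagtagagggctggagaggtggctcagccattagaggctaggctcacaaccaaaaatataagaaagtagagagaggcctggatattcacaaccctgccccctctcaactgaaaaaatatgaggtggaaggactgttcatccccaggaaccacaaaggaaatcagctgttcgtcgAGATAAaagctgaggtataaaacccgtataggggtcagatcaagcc
A match was present before a start of 5 of the 8 genes. By window, 6 of their 9 held one, beside 26.5% of 32851 windows of the same length. Il1rl1 had 5 matches in the window shown and 1 before its other start, and Ms4a2 had 3, of which the nearest began 11 bases before the start. Mcpt8, Gzmb and Fcer1g held none. The motif TGTGGT, bound by Runx factors, was found on either strand before a start of 5 of the 8 genes (Cpa3, Mcpt8, Gzmb, Fcer1a and Il1rl1). It was in 5 of their 9 windows and in 14.0% of all windows. The motif TTNNGNAA, bound by C/EBP factors, was found before a start of 2 of the 8 (Fcer1a and Il1rl1). It was in 3 of their 9 windows and in 36.8% of all windows. These matches describe the letters of the windows and are not binding sites by themselves.

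Per kilobase of merged exon, the mean level in WT fell from Mcpt8 (41.2 CPM per kb) through Cpa3 (27.3), Fcer1g (20.4), Fcer1a (8.51), Ms4a2 (4.92) and Hdc (3.57) to Il1rl1 (1.70) and Gzmb (1.32). In Tg, Hdc stood at 12.3 CPM per kb, close to Fcer1a at 12.7.

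**Figure D1:**
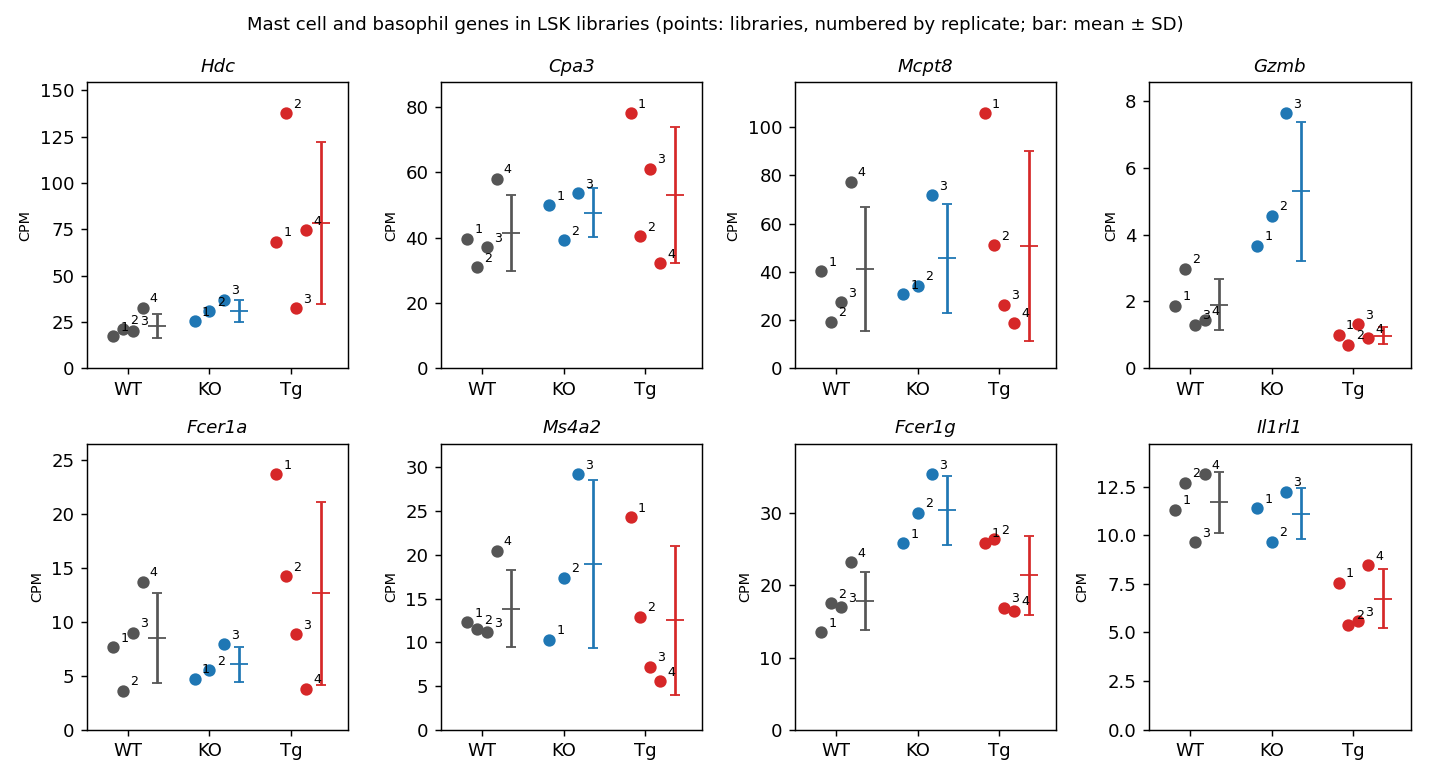
Level of each of the 8 genes in CPM (vertical axis from 0) in WT, KO and Tg libraries. Each point is 1 library, numbered by replicate, and the bar beside it is the group mean ± SD. Hdc reaches 137.7 CPM in Tg, Il1rl1 is lower in all 4 Tg libraries than in every other library, and Gzmb is highest in the 3 KO libraries.

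Transcripts of Hdc, which encodes histidine decarboxylase, the enzyme that makes histamine, rose in Tg over WT. The 4 WT libraries held 17.3, 21.03, 20.4 and 32.6 CPM in order of replicate, those of KO 25.4, 30.6 and 36.9, and those of Tg 68.3, 137.7, 32.5 and 74.6. Tg replicate 3 lay beside WT replicate 4 and within the KO range, while the other Tg libraries lay above every WT and KO library. The increase over WT was 1.78 on the log2 scale (3.44-fold, SE 0.36), with an adjusted p of 0.0216 in the quasi-likelihood test of edgeR, from 22.8 ± 6.70 CPM (SD, n = 4) to 78.3 ± 43.7 (n = 4). Without Tg replicate 2, the highest library, it was 1.36 (adjusted p = 0.0456). The call was lost without WT replicate 1 (1.66, adjusted p = 0.0605), WT replicate 2 (1.74, 0.0637) or Tg replicate 1 (1.84, 0.0531). Against KO (31.0 ± 5.78 CPM, n = 3) the log2 fold change of Hdc was 1.34 (SE 0.39, adjusted p = 0.0689). That comparison did not pass in the fit of all libraries, but passed without Tg replicate 3 (1.59, adjusted p = 0.0151), in DESeq2 (0.0267) and with no filter on low counts (0.0409).

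Markers of neutrophil progenitors were high in the same Tg libraries. Their 9 genes summed to 24360, 21928, 4909 and 9802 CPM in Tg replicates 1 to 4, to 1417 to 3591 in WT and to 3825 to 4956 in KO. In Tg 8 of the 9 rose over WT (2.54% of all genes), among them Elane, the neutrophil elastase (4.14, SE 0.71), and Prtn3, proteinase 3 (2.86, SE 0.46). Tg replicate 3 had both the lowest sum of these markers and the lowest Hdc level among the Tg mice, and Hdc was highest in Tg replicate 2 rather than in replicate 1, where the sum was largest. The part of these cells in the level of Hdc was not tested.

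**Figure D2:**
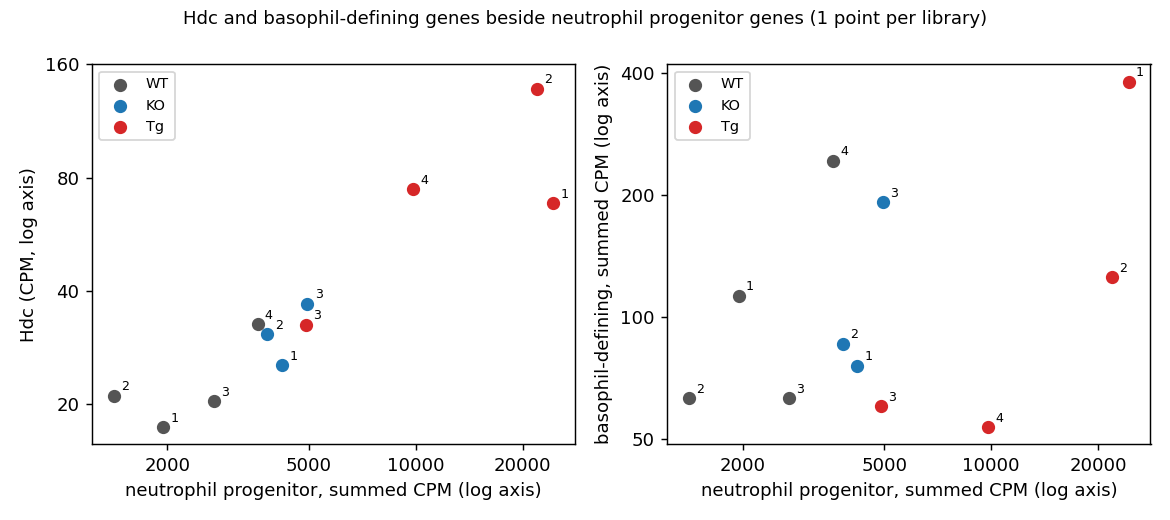
Level of Hdc (left) and the summed level of 6 basophil-defining genes (right) against the summed level of 9 neutrophil progenitor genes, all in CPM on log axes. Each point is 1 library, numbered by replicate and coloured by group. The 3 Tg libraries with the highest progenitor sums (9802 to 24360 CPM) also hold the 3 highest Hdc levels, while the basophil-defining genes are lowest in Tg replicate 4 (53.7 CPM) and highest in Tg replicate 1 (380.9 CPM).

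Il1rl1, which encodes ST2, the receptor for the alarmin interleukin-33, fell in Tg. WT libraries had 11.3, 12.7, 9.64 and 13.1 CPM, KO libraries 11.4, 9.67 and 12.2, and Tg libraries 7.55, 5.39, 5.58 and 8.45. The highest Tg library lay below the lowest library of both other groups. The change against WT was -0.79 on the log2 scale (SE 0.17, adjusted p = 0.0291 by edgeR) and that against KO -0.72 (SE 0.19, adjusted p = 0.0465), the group means being 11.7 ± 1.57, 11.1 ± 1.31 and 6.74 ± 1.5 CPM in WT, KO and Tg. WT and KO did not differ beyond their spread (-0.08, SE 0.19, adjusted p = 0.96). The call against WT was lost without WT replicate 1 (adjusted p = 0.0613), 2 (0.0829) or 4 (0.0613) or Tg replicate 1 (0.0653), 2 (0.0818) or 3 (0.0527), with log2 fold changes of -0.70 to -0.92 over the 11 omissions. The call against KO was lost for 9 of the 11 omissions, WT replicate 3 and Tg replicate 4 being the exceptions, and the highest adjusted p was 0.159, with KO replicate 3 omitted. It was also lost with RLE factors (0.051), upper quartile factors (0.0539), library totals (0.0522), no filter on low counts (0.0594), the groups alone (0.0688), the replicate block (0.0694), the Y-linked covariate (0.0752) and without the 4 libraries named above (0.189). The call against WT was lost as well with the groups alone (0.0624), the block (0.0591) and without those 4 libraries (0.607). Markers of other cells also differed between Tg and WT. Of 12 T and natural killer cell markers 6 fell and 1 rose (11 had a negative log2 fold change), and of 10 macrophage markers 4 fell. Over all genes 2.39% fell and 2.54% rose. Of 9 B cell markers none was called, while all 9 had a negative log2 fold change and an unadjusted p under 0.05 in edgeR (22.1% of all genes). The part of such cells in the level of Il1rl1 was not tested. Membrane-bound and soluble ST2 are transcribed from the same gene and are not separated by counts per gene.

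Il1rl1 lies on chromosome 1 (40429570 to 40465415, plus strand, GRCm38) in a row of interleukin-1 receptor genes, and Il18r1 starts just beyond it at 40465552. Of the 6 genes of that row (Il1r2, Il1r1, Il1rl2, Il1rl1, Il18r1 and Il18rap), 2 fell in Tg against WT, Il1rl1 among them, and none rose. Over all genes tested 2.39% fell and 2.54% rose. The other gene called was Il18rap, an accessory chain of the interleukin-18 receptor (-0.57, SE 0.13, adjusted p = 0.0331), from 98.5 CPM in WT to 66.6 in Tg. Il18r1, its ligand-binding partner, ran from 10.9 to 15.3 CPM in WT and from 5.44 to 10.2 in Tg without overlap and did not pass (-0.89, SE 0.25, adjusted p = 0.0618). Il1rl2, the interleukin-36 receptor, had a positive log2 fold change of 0.64 (adjusted p = 0.114), the opposite sign to the other 5 genes. Il1rap, the co-receptor that ST2 needs for signalling, is encoded on chromosome 16 and did not pass either (0.51, SE 0.15, adjusted p = 0.0808).

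Gzmb, granzyme B, a serine protease of cytotoxic granules that basophils and mast cells can also make, had the lowest CPM of the 8 genes in each group. Per kilobase it was lowest in WT and Tg (1.32 and 0.68 CPM per kb), while in KO it lay above Il1rl1 (3.69 against 1.61). WT libraries held 1.87, 2.98, 1.30 and 1.44 CPM, KO libraries 3.67, 4.56 and 7.64, and Tg libraries 1.0, 0.701, 1.31 and 0.891. These levels rest on 26 to 40 counts per Tg library, 30 to 97 per WT library and 152 to 228 per KO library. Every KO library was above every WT and Tg library, and Tg replicate 3 just exceeded WT replicate 3. Tg was lower than KO, with a log2 fold change of -2.44 (SE 0.36, adjusted p = 0.00425). That call was kept in each of the 11 fits that left out 1 library, the highest adjusted p being 0.0235 with KO replicate 3 omitted. Against WT, KO had a log2 fold change of 1.47 (SE 0.35, adjusted p = 0.341; 0.0169 in DESeq2) and Tg one of -0.96 (SE 0.34, adjusted p = 0.124). The order of the means was KO (5.29 ± 2.08 CPM), WT (1.90 ± 0.763) and Tg (0.976 ± 0.256), of which neither neighbouring pair passed in edgeR.

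Among 12 markers of T and natural killer cells, 6 fell in Tg against KO and 1 rose (3 fell and none rose without the 4 libraries named above). With all libraries, 3.06% of all genes fell and 2.63% rose in Tg against KO. Ncr1, a receptor of natural killer cells, went from 2.60 to 4.29 CPM in KO to at most 0.164 in Tg, and Prf1, perforin, from 1.77 to 2.61 to at most 1.23. Nkg7, a granule membrane protein that myeloid progenitors also transcribe, rose (1.38, SE 0.26, adjusted p = 0.0140) and made up most of the list's summed level, which was 103.7 to 120.2 CPM in KO, 100.9 to 127.0 in WT and 128.2 to 264.7 in Tg. Cd3e was at 0 in 3 of the 11 libraries and at most 2.00 CPM. Between KO and WT none of the 12 markers was called (0 at an unadjusted p under 0.05 in edgeR). The part of such lymphocytes in the level of Gzmb was not tested.

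None of the 3 chains of the IgE receptor was called in any comparison (0, 1 and 1 at an unadjusted p under 0.05 in Tg against WT, Tg against KO and KO against WT, the gene being Fcer1g both times), nor in DESeq2 or limma-voom. Fcer1a encodes the IgE-binding alpha chain, Ms4a2 the signal-amplifying beta chain and Fcer1g the gamma chain that other Fc receptors share. Fcer1a held 7.62, 3.63, 9.01 and 13.7 CPM in WT, 4.72, 5.52 and 7.91 in KO and 23.7, 14.2, 8.86 and 3.78 in Tg, so that the Tg libraries reached from the bottom of the WT range to above it. Its log2 fold change in Tg was 0.58 against WT (SE 0.50, adjusted p = 0.543) and 1.07 against KO (SE 0.55, adjusted p = 0.292). Ms4a2 held 12.3, 11.5, 11.1 and 20.5 CPM in WT, 10.3, 17.4 and 29.2 in KO and 24.3, 12.9, 7.22 and 5.53 in Tg. Its groups overlapped in each comparison and its log2 fold change in Tg was -0.14 against WT (SE 0.45, adjusted p = 0.889).

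Fcer1g had 13.5, 17.5, 17.0 and 23.2 CPM in WT, 25.8, 30.1 and 35.4 in KO and 25.9, 26.4, 16.9 and 16.5 in Tg. The KO libraries lay above all WT libraries (0.77 on the log2 scale, SE 0.22, unadjusted p = 0.00412), but the difference did not pass over all genes (adjusted p = 0.479). Tg overlapped both groups (0.27 against WT, adjusted p = 0.48; -0.50 against KO, adjusted p = 0.202). Monocyte and dendritic cell markers, 9 genes, summed to 1197 to 1585 CPM in KO, to 647.7 to 1060 in WT and to 673.2 to 1231 in Tg, and 7 of the 9 had KO levels above all WT levels, with none called by edgeR and 7 at an unadjusted p under 0.05 (7.5% of all genes did not overlap and 7.09% were under 0.05). Their part in the level of Fcer1g was not tested.

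The granule proteases Cpa3 and Mcpt8 showed no difference between the genotypes beyond the spread of the libraries. Cpa3, the carboxypeptidase of mast cell granules, held 39.6, 30.9, 37.02 and 58.0 CPM in WT, 49.9, 39.1 and 53.6 in KO and 78.1, 40.4, 61.1 and 32.2 in Tg (0.36 on the log2 scale for Tg against WT, SE 0.27, adjusted p = 0.474). Mcpt8, a serine protease typical of basophils, held 40.3, 19.3, 27.3 and 77.3 CPM in WT, 30.6, 34.3 and 71.7 in KO and 105.8, 51.02, 26.4 and 18.8 in Tg. Its highest Tg library was 5.63 times its lowest, against 4.00 times in WT and 2.35 times in KO, while its log2 fold change for Tg over WT was 0.31 (SE 0.55, adjusted p = 0.799). Without Tg replicate 1 that difference was -0.35 (adjusted p = 0.786).

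In all, 2 of the 8 genes were called in Tg against WT (Hdc higher, Il1rl1 lower), where 4.92% of the 17183 genes tested were called, 2.54% higher and 2.39% lower. In Tg against KO 2 were called, both lower (Gzmb and Il1rl1), where 5.69% of all genes were called and 3.06% were lower. Between KO and WT edgeR called 0 of the 8 (0.0233% of all genes), 2 had an unadjusted p under 0.05 (Gzmb and Fcer1g), DESeq2 called 1 (Gzmb) and limma-voom 0. Without the 4 libraries that held both Xist and Y-linked transcripts, which leaves 1 WT library that is assumed to vary like the others, the counts were 0, 1 (Gzmb, lower) and 0. The groups did not overlap for 1 gene in Tg against WT (9.85% of all genes), 2 in Tg against KO (20.8%) and 2 in KO against WT (7.5%). At an unadjusted p under 0.05 stood 3, 4 and 2 of the 8, beside 22.1%, 21.7% and 7.09% of all genes. The median log2 fold changes of the 8 genes were 0.29, -0.18 and 0.32 in that order, beside 0.0052, 0.013 and -0.0053 over all genes tested. Both Tg comparisons share the Tg libraries, and both comparisons with WT share the WT libraries.

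**Figure D3:**
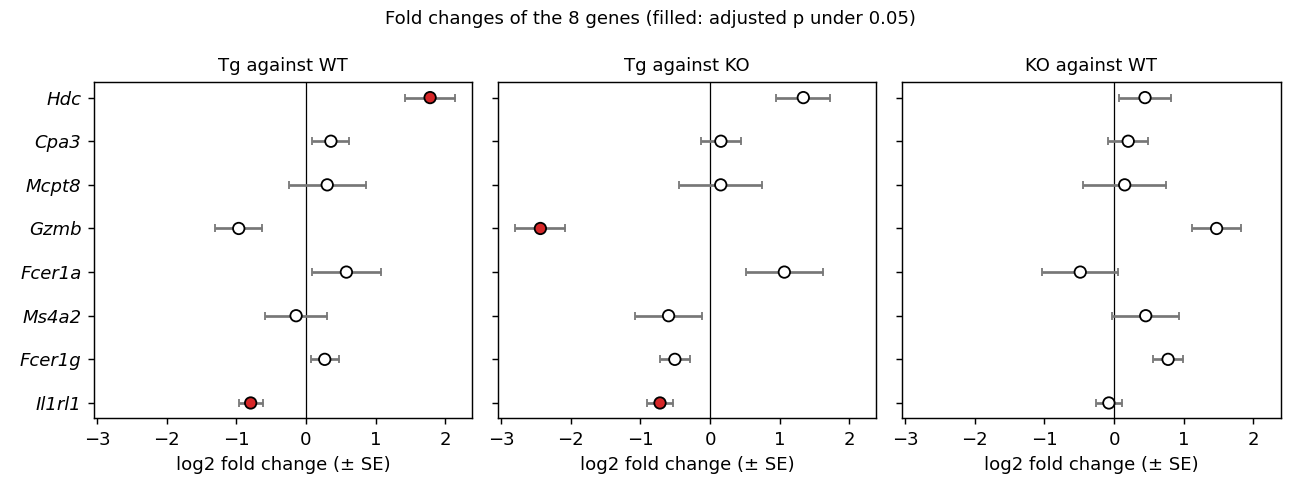
Log2 fold changes of the 8 genes with their SE in Tg against WT, Tg against KO and KO against WT, from edgeR. Filled points passed an adjusted p of 0.05: Hdc (1.78) and Il1rl1 (-0.79) in the first panel, Gzmb (-2.44) and Il1rl1 (-0.72) in the second and none in the last.

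Within the WT and KO groups a single library was highest for most of the set. KO replicate 3 had the highest level of all 8 genes among the KO libraries, and WT replicate 4 that of 7 of the 8 among the WT libraries, Gzmb being the exception. WT replicate 4 was also the library with the fewest counts (20990446). How many of all genes peak in each of these libraries was not counted. Tg replicate 1 was highest among the Tg libraries for 4 genes, Cpa3, Mcpt8, Fcer1a and Ms4a2. Hdc and Fcer1g peaked in Tg replicate 2, Gzmb in Tg replicate 3 and Il1rl1 in Tg replicate 4.

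A pair of further basophil genes that are not among the 8 showed the same libraries at the top. Prss34, a tryptase-like protease of basophils, held 126.8 CPM in WT replicate 4 against 14.3 to 48.6 in the other WT libraries, 80.3 in KO replicate 3 against 27.3 and 28.9, and 220.7 in Tg replicate 1 against 15.3 to 43.3. Cd200r3, an activating receptor of basophils and mast cells, reached 4.03, 2.21 and 5.83 CPM in the same 3 libraries, the highest of each group. Il4, also a basophil gene outside the 8, did not follow this pattern. It was highest in WT replicate 4 among the WT libraries (0.863 CPM). In KO replicate 3 (0.503) and Tg replicate 1 (0.550) it was the lowest of its group. The sum of 6 basophil-defining genes (Mcpt8, Prss34, Cd200r3, Fcer1a, Ms4a2 and Il4) was 243.1 CPM in WT replicate 4, 191.9 in KO replicate 3 and 380.9 in Tg replicate 1, and 53.7 to 125.7 in the other 8 libraries. All of these genes but Il4 had already been seen to peak in these libraries, so the sum adds no separate support. None of these 6 genes was called in any comparison (0 at an unadjusted p under 0.05 in edgeR in each). Summed eosinophil markers were also highest within their groups in these 3 libraries, at 108 CPM in WT replicate 4, 107 in KO replicate 3 and 232.7 in Tg replicate 1. The same 3 libraries were highest in their groups for the sums of neutrophil progenitor (3591, 4956 and 24360 CPM), neutrophil (108, 68.9 and 599.1 CPM) and monocyte and dendritic cell markers (1060, 1585 and 1231 CPM), so the pattern was not confined to basophil genes. The part of any of these cells in the spread was not tested.

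**Figure D4:**
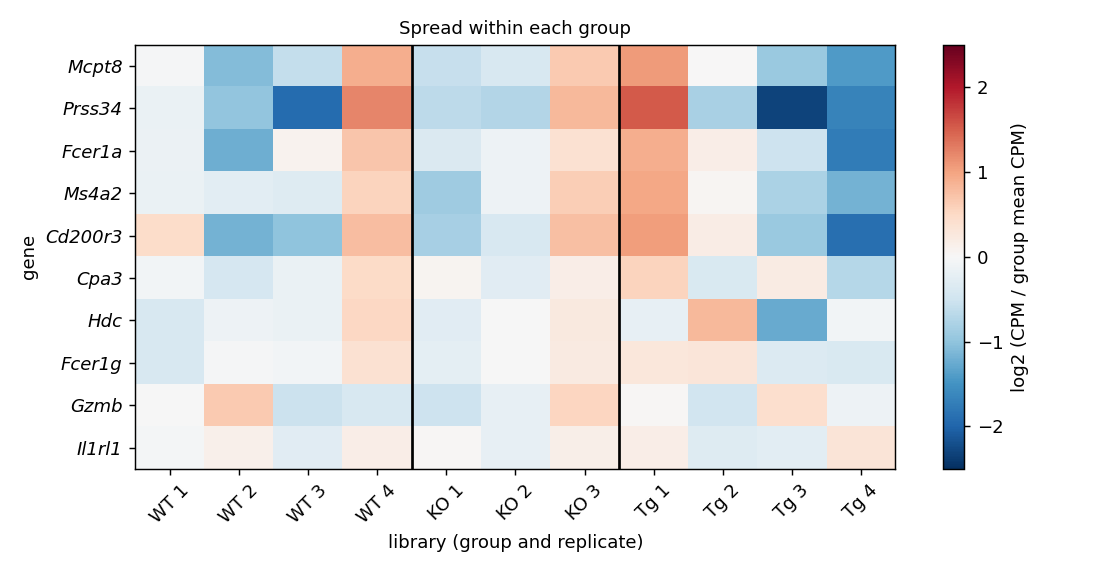
Level of each gene in each library relative to the mean of its own group, as log2 of the ratio (colour; red above and blue below the group mean). Columns are libraries and rows are the 8 genes with Prss34 and Cd200r3. WT replicate 4, KO replicate 3 and Tg replicate 1 are red for Mcpt8, Prss34, Fcer1a, Ms4a2 and Cd200r3, while Hdc is highest in Tg replicate 2.

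Profiles were also compared over all 11 libraries, groups included. Candidates were genes whose mean level reached 5 CPM, which that of Gzmb did not, so Gzmb could not be named beside another member. The gene most like Mcpt8 was Ms4a2, with a root mean square difference of 0.42 between their centred log2 CPM profiles, beside a spread of 0.79 for Mcpt8 itself, and Fcer1a came next but one (0.46). Il1rl1 was most like Camsap2 (0.18), Tmc8 (0.21) and Tpd52 (0.21). Fcer1g was most like the homeobox gene Hlx (0.16) and Tyrobp (0.21), which encodes another signalling adaptor of myeloid receptors. Hdc was closest to Dstn (0.24), which encodes the actin-severing protein destrin, to Rgcc (0.29) and to the immediate early gene Egr1 (0.30). None of the other members that were candidates was among its 3 nearest. Fcer1a was closest to Cxcr2, a chemokine receptor of neutrophils (0.44), and Cpa3 to Ndufaf2 and Cd300a (0.25 and 0.26). Gzmb was closest to Slc35d3 (0.50). These differences scale with a gene's own spread, which was 0.40 to 0.43 for Cpa3, Fcer1g and Il1rl1, 0.69 to 0.87 for Ms4a2, Mcpt8, Fcer1a and Hdc and 1.01 for Gzmb. Such likeness also reflects what libraries share, such as group, depth and cell content.

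Granule genes of mature mast cells were scarce. Cma1, the mast cell chymase, was at most 2.54 CPM, Mcpt4 at most 1.48 and Tpsb2, a tryptase, at most 0.604, and the tryptase gene Tpsab1 and the receptor genes Mrgprb1 and Mrgprb2 had 2, 2 and 3 counts over all 11 libraries. Mcpt4 had 0 counts in the 4 Tg libraries and in WT replicates 3 and 4, and 66 and 77 counts in all in WT and KO. With all libraries none of Cma1, Mcpt4 and Tpsb2 was called in any comparison. In Tg against KO all 3 were lower without overlap at an unadjusted p under 0.05 (0.0413, 0.00929 and 0.00762; 21.7% of all genes were under 0.05), and Mcpt4 was called there without the 4 libraries that held both Xist and Y-linked transcripts. With all libraries, the groups did not overlap for 20.8% of all genes in Tg against KO. Defining proteases of mature mast cells were thus near 0, whereas Cpa3 and the basophil genes Mcpt8 and Prss34 were not.

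Mcpt8 (chromosome 14, 56082166 to 56085273) and Gzmb (56258838 to 56262260) are the members that lie in the chymase locus, a cluster of serine protease genes, with Ctsg between them at 56099881 to 56102574. Of 15 genes of that cluster 5 passed the filter (Cma1, Mcpt4, Mcpt8, Ctsg and Gzmb), and the other 10 had 12 counts or fewer over all libraries. Their directions differed: in Tg against KO Ctsg, cathepsin G of neutrophil granules, rose (2.09, SE 0.53, adjusted p = 0.0417), Gzmb fell and Mcpt8 did not pass (0.15, SE 0.60). Ctsg went from 216.2 to 279.0 CPM in KO to 368.5 to 1726 in Tg, a change whose call was lost for 5 of the 11 omissions (adjusted p up to 0.154, without KO replicate 2).

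The other genes of the programme were read from a list of 79 genes in 7 roles, of which 67 were tested. In Tg against WT 5 rose and 2 fell (2.54% and 2.39% of all genes), the median log2 fold change being 0.08. In Tg against KO 3 rose and 4 fell (2.63% and 3.06% of all genes, median 0.08). In KO against WT edgeR called 0, with 6 at an unadjusted p under 0.05 (7.09% of all genes), and DESeq2 and limma-voom called 0. Without the 4 libraries named above the counts were 0, 4 and 0, the 4 being Mcpt4, Fyn and Cnrip1, lower, and Itga2b, higher. DESeq2 called 17 and 19 of the list in the Tg comparisons, and its counts over all genes are given below.

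Of 13 granule genes, 7 of them tested, 2 were called in Tg against WT, and the median of the 7 log2 fold changes was -0.07. Ctsg (2.85, SE 0.49, adjusted p = 0.0127) and Srgn, the serglycin proteoglycan that packs proteases and histamine into granules (0.83, SE 0.17, adjusted p = 0.0216), rose over WT. Srgn held 382.6 to 549.3 CPM in WT and 568.8 to 1027 in Tg without overlap, and its call was lost for 4 of the 11 omissions (adjusted p up to 0.0685, without Tg replicate 1). Ctsg is itself among the neutrophil progenitor markers whose rise in Tg is given above, and Srgn is also a gene of those cells. The part of such cells in the level of Ctsg or Srgn was not tested.

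Of 9 genes for amine and lipid mediators, 7 tested, Ptgs1 and Alox5ap rose over WT. Ptgs1, cyclooxygenase 1 of prostaglandin synthesis, went from 43.8 to 53.5 CPM in WT and 30.2 to 42.4 in KO to 56.9 to 94.2 in Tg (0.65 against WT, SE 0.15, adjusted p = 0.0351; 1.09 against KO, SE 0.17, adjusted p = 0.00536). Alox5ap, which hands arachidonic acid to 5-lipoxygenase for leukotriene synthesis, rose by less (0.41, SE 0.089, adjusted p = 0.0285), from 104.4 to 127.7 CPM in WT to 138.0 to 172.9 in Tg. Slc18a2, the transporter that loads histamine into granules, did not pass beside Hdc (0.22 against WT, adjusted p = 0.553). The call of Ptgs1 against WT was lost for 8 of the 11 omissions and that of Alox5ap for 4 (adjusted p up to 0.108 and 0.0923, both without Tg replicate 1), while that of Ptgs1 against KO was kept in all 11.

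Of 12 genes of the signalling chain below the IgE receptor, all tested, 10 had a negative log2 fold change in Tg against WT and 10 against KO. The changes were mostly small, with medians of -0.16 and -0.22. At an unadjusted p under 0.05 in edgeR stood 3 and 5 of the 12, beside 22.1% and 21.7% of all genes. Fyn passed in Tg against WT (-0.47, SE 0.079, adjusted p = 0.0127) and Fyn (-0.65, SE 0.085, adjusted p = 0.00254) and Gab2 (-0.26, SE 0.068, adjusted p = 0.0458) fell in Tg against KO. Fyn, a Src family kinase that works beside Lyn at the receptor, held 62.0 to 74.6 CPM in WT, 77.9 to 80.6 in KO and 47.4 to 56.6 in Tg, and its call was kept in all 11 omissions in both comparisons. Gab2, an adaptor of the Fyn branch, lost its call for 10 of the 11 (adjusted p up to 0.182, without KO replicate 1). The receptor's first kinases Lyn and Syk did not pass against WT (-0.07 and -0.14). In KO the gene with the lowest p was Lat, an adaptor (-0.41, SE 0.15, adjusted p = 0.643).

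Of 9 growth factor and cytokine receptor genes none was called in Tg against WT, 0 against KO and 0 in KO against WT. An unadjusted p under 0.05 in edgeR was reached by 2, 2 and 1 of the 9, beside 22.1%, 21.7% and 7.09% of all genes. Kit, the receptor for stem cell factor on which mast cells depend, had log2 fold changes of 0.33 in Tg against KO (adjusted p = 0.107) and -0.26 in KO against WT (adjusted p = 0.689). Il3ra, a chain of the receptor for interleukin-3, the cytokine that expands basophils, held 12.5 to 29.3 CPM in WT and 14.2 to 32.2 in Tg.

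Of 14 transcription factor genes of the lineage, all tested, 1 was called in Tg against WT and none in the other comparisons. An unadjusted p under 0.05 in edgeR was reached by 6, 5 and 1 of the 14, beside 22.1%, 21.7% and 7.09% of all genes. Cebpb rose in Tg over WT (1.07, SE 0.27, adjusted p = 0.0431), from 8.67 to 19.4 CPM in WT to 17.5 to 38.1 in Tg, with a call lost for 9 of the 11 omissions (adjusted p up to 0.120, without Tg replicate 2). Gata2 held 156.1 to 217.4 CPM in WT, 152.1 to 215.2 in KO and 162.3 to 266.9 in Tg (0.08 for Tg against WT, adjusted p = 0.834), and Mitf, a mast cell factor, 9.44 to 12.8 in WT and 12.3 to 17.2 in Tg (0.41, adjusted p = 0.134). Irf8, a factor of monocytes and dendritic cells, had the lowest p in both KO comparisons (-1.09 for Tg against KO, adjusted p = 0.0646; 0.69 for KO against WT, adjusted p = 0.696).

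Of 11 surface protein genes, 9 tested, Itga2b, the integrin alpha chain CD41 of megakaryocytes and of early progenitors, rose in Tg against KO (1.20, SE 0.25, adjusted p = 0.0192) and Itgb7, an integrin chain of mast cell progenitors, fell (-0.76, SE 0.19, adjusted p = 0.0416). These calls were lost for 2 and 7 of the 11 omissions (adjusted p up to 0.0773 and 0.128, without KO replicates 2 and 3). Neither passed against WT, where the gene with the lowest p was Itga2 (-0.76, SE 0.21, adjusted p = 0.0587). Among 11 cytokine and other effector genes, 9 tested, Cnrip1, a cannabinoid receptor interacting protein, fell against WT (-0.64, SE 0.14, adjusted p = 0.0300) and against KO (-0.83, SE 0.15, adjusted p = 0.0115), its calls lost for 4 and 1 omissions (adjusted p up to 0.0953 and 0.0543, without Tg replicate 1 and KO replicate 2). Il4, the type 2 cytokine of basophils, was at most 1.02 CPM, and in KO against WT Ccl4 had the lowest p (0.88, SE 0.27, adjusted p = 0.564).

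**Figure D5:**
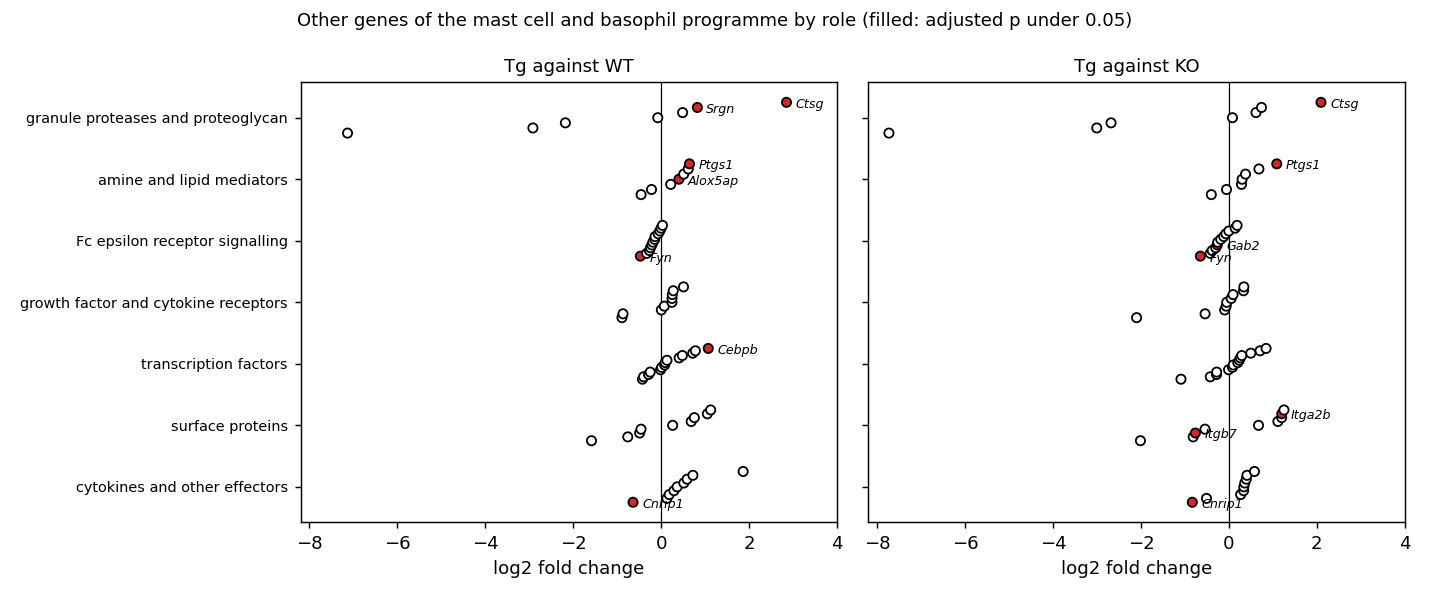
Log2 fold changes of the 67 tested genes of the wider mast cell and basophil list, by role, in Tg against WT (left) and Tg against KO (right). Each point is 1 gene, and filled, named points passed an adjusted p of 0.05, among them Ctsg (2.85 and 2.09), Ptgs1 (0.65 and 1.09), Fyn (-0.47 and -0.65) and Cnrip1 (-0.64 and -0.83).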

How the data were processed

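The deposited values are unnormalised counts for each gene symbol in 11 libraries of LSK cells. FastQC, Trimmomatic, STAR, HTSeq and the build mm10 are named per the submitters' processing notes; the sources used here do not give versions, annotation or strand setting. The 11 libraries were fitted together with edgeR 4.0.16 (R 4.3.3): TMM factors, filterByExpr on the group, no covariate and the quasi-likelihood test, with Benjamini-Hochberg adjustment over 17183 genes and calls at an adjusted p under 0.05. Each SE is the size of the log2 fold change divided by the root of F, and CPM are TMM normalised (Y-linked sums use library totals). Each library is labelled as 1 mouse, and p-values measure the spread between libraries. Whether the 4 libraries that held both Xist and Y-linked transcripts each came from 1 mouse was not tested. The members and lists were chosen with earlier results of these data known. Named genes are the 8 members, the called genes of each role (with no call, that of lowest p) and the 3 most similar profiles, leaving out predicted models and antigen receptor segments. Genes of the text outside that rule (markers, locus neighbours, genes named for their role) were chosen after their values were seen. The fit was tested on simulated counts. There DESeq2 exceeded the limit on false calls that was set for edgeR and limma-voom, so its calls are given as an alternative only. Positions and exon lengths are GENCODE M21 (GRCm38); promoters are RefSeq (GRCm38.p6), found for all 8 members. Clec6a was read as Clec4n. No member shares exons with another annotated gene. Near-identical copies in the chymase and Ms4a families could share reads. Alternatives were DESeq2 1.42.0, limma-voom (limma 3.58.1), other scaling and filters, the groups compared alone, a replicate block, the Y-linked level as covariate and each library left out; leaving out the libraries with Xist and Y-linked reads together, for each list of genes, was added after seeing the data. Figures used matplotlib 3.10.9.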

Additional observations from a re-analysis of the deposited data

Results flagged for a closer look

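In 24 genes (the 8 members and the named genes of the wider list), each examined in the 4 WT and the 4 Tg libraries, a single library stood far from the other 3 in 2 of the 48 groups, where chance gives about 1 in 20. Ms4a2, the beta chain of the IgE receptor, was 20.5 CPM in WT replicate 4, against 11.1 to 12.3 CPM in the other WT libraries. Lat, an adaptor of the receptor's signalling chain, was 29.0 CPM in WT replicate 2, against 22.1 to 23.0 CPM in the others.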

How the results depend on the processing

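For the 8 genes, the calls in Tg against WT numbered 2 and fell to 1 with the groups compared alone, 0 with the replicate block and 0 without the libraries holding Xist and Y-linked reads, and to 0 to 2 with 1 library left out. In Tg against KO they numbered 2, and 1 with RLE factors, upper quartile factors, library totals, the groups alone, the replicate block, the Y-linked covariate or without those libraries (1 to 2 with 1 library left out). In KO against WT they numbered 0, 1 in DESeq2, and 0 whichever library was left out. Of the wider list, 7 were called in Tg against WT, but 17 in DESeq2, 2 with the groups alone, 1 with the replicate block, 0 without those libraries and 2 to 11 with 1 left out. In Tg against KO 7 were called, 19 in DESeq2, 3 with the block, 3 with the covariate, 4 without those libraries and 2 to 12 with 1 left out. Over all genes, 846 were called in Tg against WT: 1842 in DESeq2, 358 with the groups alone, 221 with the block, 1422 with the covariate, 20 without those libraries and 211 to 1076 with 1 left out. For Tg against KO these were 978: 1891 in DESeq2, 303 with the block, 463 with the covariate, 364 without those libraries and 287 to 1096. For KO against WT they were 4: 107 in DESeq2, 1 in limma-voom, 1 with the groups alone, 1 with the block, 2 with the covariate and 1 to 4. Fits with fewer libraries have fewer residual degrees of freedom; for the other settings the cause was not tested.

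Replicate numbers did not pair the mice: same-numbered libraries correlated between -0.245 and 0.0959 in their deviations from group means. With the replicate block Hdc (1.72, adjusted p = 0.0539) and Il1rl1 (-0.81, 0.0591) were not called against WT, nor Il1rl1 against KO (-0.83, 0.0694). Signs turned for uncalled genes: Ms4a2 against WT in Tg was 0.14 with the covariate and 0.17 without those libraries (-0.69 to 0.10 with 1 left out), and 0.0235 against KO with the covariate. Mcpt8 in Tg against KO was -0.0187 with the block and -0.0809 without those libraries (-0.50 to 0.64), and in KO against WT -0.12 with the covariate (-0.35 to 0.65). Mcpt8 in Tg against WT ran from -0.35 to 0.80 with 1 library left out, Cpa3 in Tg against KO from -0.0927 to 0.33, and Ms4a2 in KO against WT from -0.0108 to 0.75. Il1rl1 in KO against WT was 0.0125 with the block and 0.20 without those libraries (-0.17 to 0.0163). In all, of 528 values of single genes under alternatives, 472 kept their direction and side of the threshold, 21 turned sign, 31 lost a call and 4 gained one. Gzmb counts of 26 to 40 per Tg library limit its precision.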

Other observations

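Ms4a2 lies on chromosome 19 (11615523 to 11623719) in the Ms4a cluster, beside Ms4a3 (11629496 to 11640851), a gene of granulocyte-monocyte progenitors. Of 15 genes of the cluster 9 were tested. In Tg against WT Ms4a3 rose (3.48, SE 0.60, adjusted p = 0.0135), from 13.2 to 64.0 CPM in WT to 97.2 to 705.2 in Tg, and Ms4a4b, a gene of T cells, fell (-1.54, SE 0.26, adjusted p = 0.0127), from 2.95 to 5.23 CPM to 1.23 to 1.64. Ms4a2, between them in sequence order, did not pass. Against KO 3 of the 9 fell, and 1 (Ms4a4b) without the libraries that held both Xist and Y-linked transcripts. With all libraries, 3.06% of all genes fell in Tg against KO. In KO against WT all 9 had a positive log2 fold change and edgeR called 0 of them (3 at an unadjusted p under 0.05, beside 7.09% of all genes).

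Receptors grouped with the gamma chain Fcer1g were read from a list of 10 genes, 7 of them tested. The list also holds Pirb, the inhibitory relative of the gamma-chain partner Pira2. Ncr1 fell in Tg against WT (-4.43, SE 0.69, adjusted p = 0.0101) and none rose. Against KO, Ncr1 (-5.25, SE 0.72, adjusted p = 0.00301) and Fcgr1, the high-affinity IgG receptor (-3.08, SE 0.64, adjusted p = 0.0209), fell; without those libraries Ncr1 and Pirb did. Fcgr1 held 1.66 to 2.43 CPM in KO and at most 0.500 in Tg. Fcgr3, a low-affinity IgG receptor of myeloid cells, did not pass in either comparison (1.17 against WT, adjusted p = 0.311; 0.79 against KO, adjusted p = 0.564).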
